A study of Mus musculus with 16 samples.

Results

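A set of 10 genes that bring cholesterol and other lipids into cells, move them between compartments, store them and export them was followed through the ovary and testis of germ-free and conventionally raised mice. They are Apoe, Scarb1, Cd36, Abca1, Npc1, Stard3, Osbpl1a, Soat1, Lipe and Plin2. They were chosen by name for these functions from the 38087 genes of the count table, with earlier results of these data known. Every one was found. Germ-free (GF) mice live without microbes, and conventionally raised (CV) mice carry an ordinary microbiota. Whole organs were profiled by total RNA sequencing in 16 libraries, which the labels place in 4 groups: 3 GF testes and 4 CV testes from males, and 5 GF ovaries and 4 CV ovaries from females. All mice were C57BL/6j, aged 15 to 16 weeks, fed ad libitum and sampled at zeitgeber time 2 to 4, counted in hours from lights on. Tissue and sex cannot be told apart in this design, and no label gives a batch, cage, litter or stage of the oestrous cycle. Since nothing in the labels ties each library to an animal of its own, a p-value here speaks of the spread between libraries, part of which may be technical.

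Steroid-making cells of the gonads draw cholesterol from circulating lipoproteins as well as from their own synthesis. Scarb1 takes up cholesteryl ester from high-density lipoprotein, Soat1 re-esterifies free cholesterol for storage in lipid droplets coated by perilipins such as Plin2, and Lipe releases it again for the mitochondria. Npc1 and Stard3 handle sterol at late endosomes and lysosomes, and Abca1 exports cholesterol to apolipoproteins. In the testis, Sertoli cells also take up lipid from the germ cell remnants that they engulf, and Lipe is needed for the later steps of sperm formation in mice.

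Promoter windows from RefSeq on GRCm38.p6, 250 bases before to 50 after a transcript start, were found for 7 of the 10 genes, all but Scarb1, Npc1 and Osbpl1a. Printed here are both windows of Lipe, the gene that differed most between testis and ovary, and those of Plin2, Apoe and Cd36, which differed between GF and CV testes. All 5 lie on the minus strand and run 5′ to 3′, at chr7:25395938-25396237 and chr7:25390063-25390362 for Lipe, chr4:86670010-86670309 for Plin2, chr7:19699139-19699438 for Apoe (the outermost of its 3 windows) and chr5:17835847-17836146 for Cd36. The Cd36 window and both Lipe windows lie inside the annotated genes, which reach chr5:17888801 and chr7:25398710, so they are not at the outermost annotated ends. Upstream and downstream name the Lipe starts relative to each other only. Capitals mark the E-box CACGTG and the GC box GGGCGG on either strand.
Lipe, upstream start: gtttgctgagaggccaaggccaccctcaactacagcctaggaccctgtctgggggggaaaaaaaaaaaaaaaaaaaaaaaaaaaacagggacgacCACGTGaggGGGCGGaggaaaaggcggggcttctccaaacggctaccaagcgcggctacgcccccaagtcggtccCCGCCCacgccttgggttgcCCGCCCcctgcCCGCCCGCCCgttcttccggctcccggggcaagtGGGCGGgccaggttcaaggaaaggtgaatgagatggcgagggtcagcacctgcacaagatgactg
Lipe, downstream start: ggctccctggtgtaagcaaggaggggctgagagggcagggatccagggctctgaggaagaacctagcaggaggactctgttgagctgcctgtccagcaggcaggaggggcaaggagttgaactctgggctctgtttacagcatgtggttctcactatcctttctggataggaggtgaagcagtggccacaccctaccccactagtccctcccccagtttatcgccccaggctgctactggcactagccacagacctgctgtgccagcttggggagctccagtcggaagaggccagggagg
Plin2: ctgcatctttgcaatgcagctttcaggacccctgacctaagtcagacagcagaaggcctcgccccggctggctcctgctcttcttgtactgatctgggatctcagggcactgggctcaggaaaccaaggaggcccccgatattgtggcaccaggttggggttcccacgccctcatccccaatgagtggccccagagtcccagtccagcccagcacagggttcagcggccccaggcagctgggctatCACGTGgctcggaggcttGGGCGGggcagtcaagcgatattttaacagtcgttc
Apoe: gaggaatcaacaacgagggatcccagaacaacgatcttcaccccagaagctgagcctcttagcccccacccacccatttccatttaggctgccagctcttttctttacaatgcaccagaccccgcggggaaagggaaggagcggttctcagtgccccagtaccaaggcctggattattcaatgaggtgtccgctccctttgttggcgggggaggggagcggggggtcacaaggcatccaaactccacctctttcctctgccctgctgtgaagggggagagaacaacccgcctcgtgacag
Cd36: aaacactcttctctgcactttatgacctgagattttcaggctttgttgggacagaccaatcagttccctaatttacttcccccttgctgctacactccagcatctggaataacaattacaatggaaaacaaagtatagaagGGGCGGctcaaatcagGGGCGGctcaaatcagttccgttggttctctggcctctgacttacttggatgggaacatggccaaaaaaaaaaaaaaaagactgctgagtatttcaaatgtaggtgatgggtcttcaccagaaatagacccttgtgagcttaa
The E-box stood in the windows of Lipe (upstream start), Plin2 and Abca1, 3 of the 10 windows of these genes, and in 7.15% of the 32851 RefSeq windows of the mouse. GC boxes stood in 6 of the 10 windows of these genes and in 35.7% of all windows. The TATA box TATAAA was found in a window of Abca1 and in another window of Apoe, and in 13.6% of all. The other motifs searched, the nuclear receptor half-site AGGTCA repeated with 4 or with 1 base between, the SF-1 site CAAGGTCA and the cyclic AMP site TGACGTCA, were in none of the windows of these genes and in 0.0152%, 0.0396%, 1.56% and 1.79% of all windows, in that order. The counts are per gene, so they do not tell which Lipe start was used. A longer form of the Lipe protein made from a testis start upstream of the adipocyte starts is known in rodents and humans.

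On GRCm38 in the GENCODE M21 annotation, the ligand gene Apoe (ENSMUSG00000002985) at chr7:19696109-19699188 and Lipe (ENSMUSG00000003123) at chr7:25379527-25398710 share a chromosome, both on the minus strand. The receptor genes Scarb1 (ENSMUSG00000037936) at chr5:125277087-125341094 and Cd36 (ENSMUSG00000002944) at chr5:17781690-17888801 also lie on the minus strand. So do Abca1 (ENSMUSG00000015243) at chr4:53030787-53159895, Plin2 (ENSMUSG00000028494) at chr4:86648386-86670060 and Soat1 (ENSMUSG00000026600) at chr1:156424525-156474331. The sterol carrier genes are Npc1 (ENSMUSG00000024413) at chr18:12189692-12236400 and Osbpl1a (ENSMUSG00000044252) at chr18:12755314-12941841, on the minus strand, and Stard3 (ENSMUSG00000018167) at chr11:98358368-98381112, on the plus strand. Other annotated genes overlap Scarb1, Npc1, Osbpl1a, Soat1 and Lipe. The one at Scarb1 lies on the same strand, so counting by strand would not separate it, and the rest lie on the opposite strand. Whether counting used strand is not given by any source used here. Among the overlapping genes, Rmc1 (at Npc1) had 6732 counts over all 16 libraries and the antisense gene of Lipe had 99. The others had 54, 10 or were not in the table.

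The testis libraries held 25880591 to 28266867 counts and the ovary libraries 12912251 to 15907297. Levels are CPM, counts divided by the library total after TMM scaling over all 16 libraries. Counting error is as large as the spread between libraries for Npc1 in the testis, at 172 to 201 counts a library, and close to it for Stard3 in the ovary, at 412 to 520 counts. The organs carried the markers of their labels: the summed CPM of 4 spermatid genes was 11596 to 12790 in testes and 0.0993 to 1.19 in ovaries, and that of 6 luteal genes was 195 to 308 in testes and 5309 to 9403 in ovaries. Ovary libraries differed among themselves in adipocyte markers (Adipoq, Lep, Retn, Pck1, Plin1, Cidec and Fabp4), whose sum was 33.6, 199.98, 846, 26.8 and 587 CPM in the 5 GF ovaries and 215, 922, 378 and 53.9 CPM in the 4 CV ovaries. In testes the same sum was 17.8 to 35.6 CPM, of which Adipoq alone gave 11.7 to 16.7 CPM. In GF ovary 4, Plin1 alone gave 23.0 of the 26.8 CPM. In whole organs, fewer cells of a type and less RNA per cell cannot be told apart.

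**Figure D1:**
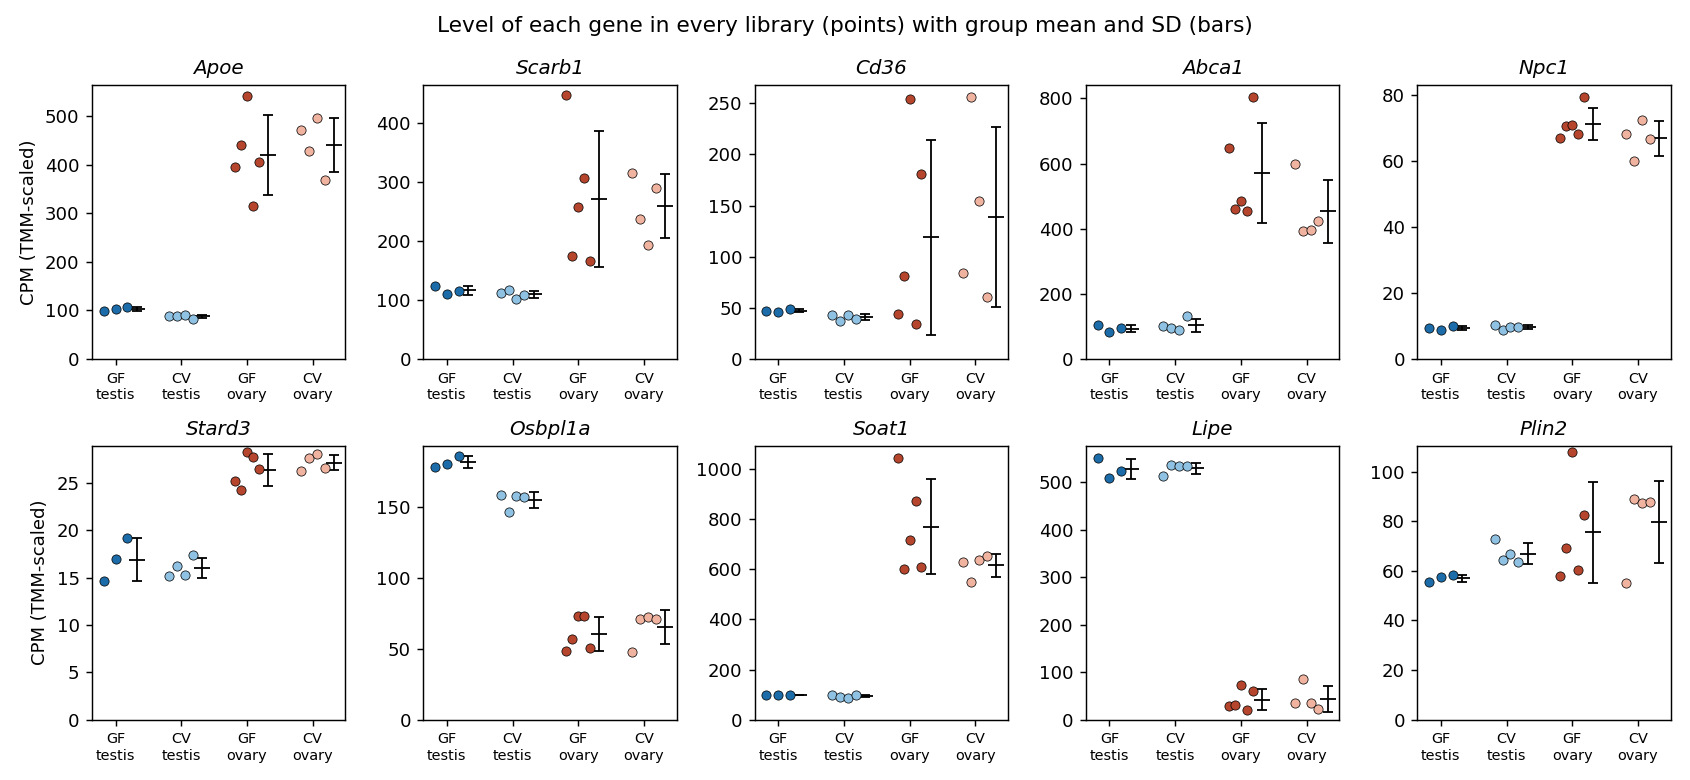
Each point is the level of a gene in 1 library, in TMM-scaled CPM on a linear axis from 0, and the bars give the mean and SD of each group. GF testes lie above all CV testes for Apoe (99.0 to 107 against 83.3 to 90.4 CPM) and below them for Plin2 (55.5 to 58.3 against 63.6 to 72.9 CPM), while in the ovary the GF and CV points overlap for every gene.

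In the testis, 3 of the 10 genes, Apoe, Cd36 and Osbpl1a, were 17.3% to 18.5% higher in GF than in CV males, and Plin2 fell by 13.9%. The other 6 genes did not pass the test, which was edgeR's quasi-likelihood F test over all genes with Benjamini-Hochberg adjustment, called at an adjusted p under 0.05. Of all 20269 genes tested in the testis, 8.08% were called, 3.67% higher and 4.41% lower.

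Apoe, the apolipoprotein that carries lipid between cells and is bound by receptors of the LDL receptor family, measured 99.0, 103 and 107 CPM in GF testes, against 88.8, 88.8, 90.4 and 83.3 CPM in CV testes. Every GF testis lay above every CV testis. The log2 fold change was 0.24 (SE 0.0406, edgeR adjusted p = 5.16e-05).

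Osbpl1a encodes an oxysterol-binding protein homologue (ORP1) that senses cholesterol at late endosomes and governs their placement in the cell. Its level was 178, 180.5 and 186 CPM in GF testes, against 159, 146, 157 and 157 CPM in CV testes. The groups did not overlap, and the log2 fold change was 0.24 (SE 0.0336, edgeR adjusted p = 1.68e-06). Reads of an antisense transcript that the annotation places within Osbpl1a could not be separated if strand was not used in counting.

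Cd36, a scavenger receptor that takes up fatty acids and oxidised lipoprotein, measured 47.2, 45.9 and 48.6 CPM in GF testes, against 43.0, 37.3, 43.1 and 39.4 CPM in CV testes. Here too the lowest GF value lay above the highest CV value, with a log2 fold change of 0.23 (SE 0.0550, edgeR adjusted p = 0.00453). Scarb1, the other receptor, overlapped between the groups: it had 124, 109.9 and 115 CPM in GF testes, against 112, 116, 101 and 109 CPM in CV testes (log2 fold change 0.10, SE 0.0487, adjusted p = 0.261).

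Plin2, the coat protein of lipid droplets in most cells other than adipocytes, was the gene that moved the other way. It measured 55.5, 57.4 and 58.3 CPM in GF testes, against 72.9, 64.5, 66.8 and 63.6 CPM in CV testes, and every GF value was below every CV value. The log2 fold change was -0.22 (SE 0.0491, edgeR adjusted p = 0.00276). Soat1 and Lipe did not pass the test. Soat1, the sterol O-acyltransferase, had 99.8, 99.9 and 100.1 CPM in GF testes, against 99.6, 92.7, 87.5 and 98.2 CPM in CV testes. Its groups did not overlap but lay close (log2 fold change 0.10, SE 0.0413, adjusted p = 0.176). Lipe, the hormone-sensitive lipase, had 549.9, 509 and 523 CPM in GF testes, against 512, 536, 534 and 533 CPM in CV testes, a log2 fold change of 0.01 with a 95% interval of -0.05 to 0.07 (adjusted p = 0.894).

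The remaining genes of the testis had overlapping groups. Abca1 had 103, 83.6 and 94.4 CPM in GF testes, against 100.2, 94.0, 89.0 and 134 CPM in CV testes (log2 fold change -0.14, SE 0.167, adjusted p = 0.748). Its spread was wide for a testis gene, since 99.4% of the 11087 testis genes at 10 CPM or more varied less within groups. Npc1, the lysosomal cholesterol exporter, ranged from 8.72 to 9.92 CPM in GF testes and from 8.84 to 10.3 CPM in CV testes (log2 fold change -0.03, adjusted p = 0.911). Stard3, which tethers late endosomes to the endoplasmic reticulum and passes sterol between them, ranged from 14.6 to 19.2 CPM in GF testes and from 15.2 to 17.4 CPM in CV testes (0.09, adjusted p = 0.608).

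In all, the GF and CV ranges were apart for 5 of the 10 genes, where 16.7% of all tested genes had ranges apart. By edgeR, 5 of the 10 had an unadjusted p under 0.05, beside 19.4% of all. The 10 genes were chosen with earlier results of these data known, so these shares are descriptions and do not test the set. The calls of Apoe, Osbpl1a, Cd36 and Plin2 stood in each of the fits that left out 1 testis library. They were lost in a fit of all 16 libraries, which shares 1 estimate of spread between the tissues: the log2 fold changes were then 0.22, 0.23, 0.21 and -0.23, with adjusted p-values of 0.913, 0.936, 1 and 0.993.

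Markers of the cells that could carry these genes were measured in the same libraries. Macrophages, which express Apoe, Cd36 and Plin2 in many tissues, had a summed marker level of 121 to 128 CPM in GF testes and 132 to 140 CPM in CV testes. Mrc1 alone gave 68.5 to 72.4 CPM in GF and 68.9 to 77.5 CPM in CV testes. Of the 8 macrophage markers 1, the lysozyme gene Lyz2, was called (log2 fold change -0.22, edgeR adjusted p = 0.0493). Leydig cell markers summed to 1167 to 1178 CPM in GF testes and 904 to 1257 CPM in CV testes, and 0 of 6 were called. Sertoli cell markers summed to 1056 to 1119 CPM in GF testes and 1071 to 1123 CPM in CV testes, and 0 of 7 were called. Most of that sum was Clu, at 850 to 890 CPM in GF and 851 to 902 CPM in CV testes. Clu also had 414 to 777 CPM in ovaries. Adipocyte markers summed to 18.5 to 35.6 CPM in GF testes and 17.8 to 32.3 CPM in CV testes, with 0 of 7 called. Endothelial markers summed to 32.8 to 39.8 CPM in GF testes and 33.2 to 38.0 CPM in CV testes. Of these, 1 of 6, Egfl7, was called (log2 fold change 0.43, edgeR adjusted p = 0.00433). The median log2 fold change of the 6 was -0.07, so the list as a whole did not rise with Egfl7. Smooth muscle markers summed to 116 to 120 CPM in GF testes, below the 123 to 139 CPM of CV testes, and 1 of 3, Acta2, was called (-0.16, adjusted p = 0.0393). Spermatid markers summed to 11596 to 12264 CPM in GF testes and 12198 to 12790 CPM in CV testes, with Acrv1 lower (-0.16, edgeR adjusted p = 0.00125) of 4. Spermatocyte markers summed to 442 to 459 CPM in GF testes and 442 to 464 CPM in CV testes. Of these 3, Spo11 was called higher (0.14, edgeR adjusted p = 0.0184), but the median log2 fold change was -0.0037. Hormad1 leaned lower, at 140, 145 and 144 CPM in GF testes, against 156, 147, 145 and 155 CPM in CV testes. These single marker calls stand beside the 8.08% of all genes tested in the testis that were called. The part of these cell types in the results was not tested.

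Among 76 other genes of lipoprotein supply, uptake, efflux, sterol carriage and lipid droplets, 70 were tested in the testis, and 4 rose and 2 fell in GF males, near the share of 8.08% of all genes called. Their median log2 fold change was 0.05, beside 0.0035 over all genes tested. The rises included 3 of the 17 lipid droplet genes tested, where 3.67% of all genes rose. The 76 genes were also chosen with earlier results of these data known, so these shares do not test them. Mgll, the monoacylglycerol lipase, averaged 187 ± 8.26 CPM in GF testes and 156 ± 0.765 CPM in CV testes (SD, n = 3 and 4), a log2 fold change of 0.28 (adjusted p = 1.17e-07). Dgat1, which makes triglyceride, averaged 115 ± 5.10 CPM in GF testes and 102 ± 1.503 CPM in CV testes (0.18, adjusted p = 9.45e-04). Abhd5, the coactivator of adipose triglyceride lipase, averaged 321 ± 4.27 CPM in GF testes and 293 ± 11.6 CPM in CV testes (0.15, adjusted p = 0.00151). Genes for making and for breaking down glycerides were both among the rises, while the droplet coat gene Plin2 was lower.

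The remaining calls were of receptors and carriers. Pdzk1, the scaffold protein that holds Scarb1 at the membrane of mouse liver cells, averaged 419 ± 10.8 CPM in GF testes and 482 ± 14.7 CPM in CV testes (log2 fold change -0.19, adjusted p = 6.00e-05). Of the oxysterol-binding family to which Osbpl1a belongs, Osbpl9 was higher in GF testes (0.10, adjusted p = 0.0440) and Osbpl10 lower (-0.12, adjusted p = 0.0495). No efflux gene was called among 5 tested, and no lipoprotein supply gene among 8, by the same edgeR test. In that order, 0 and 1 of their genes had an unadjusted p under 0.05. Over all genes tested in the testis, 8.08% were called and 19.4% had an unadjusted p under 0.05. With sets this small, the lack of calls says little about these roles.

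**Figure D2:**
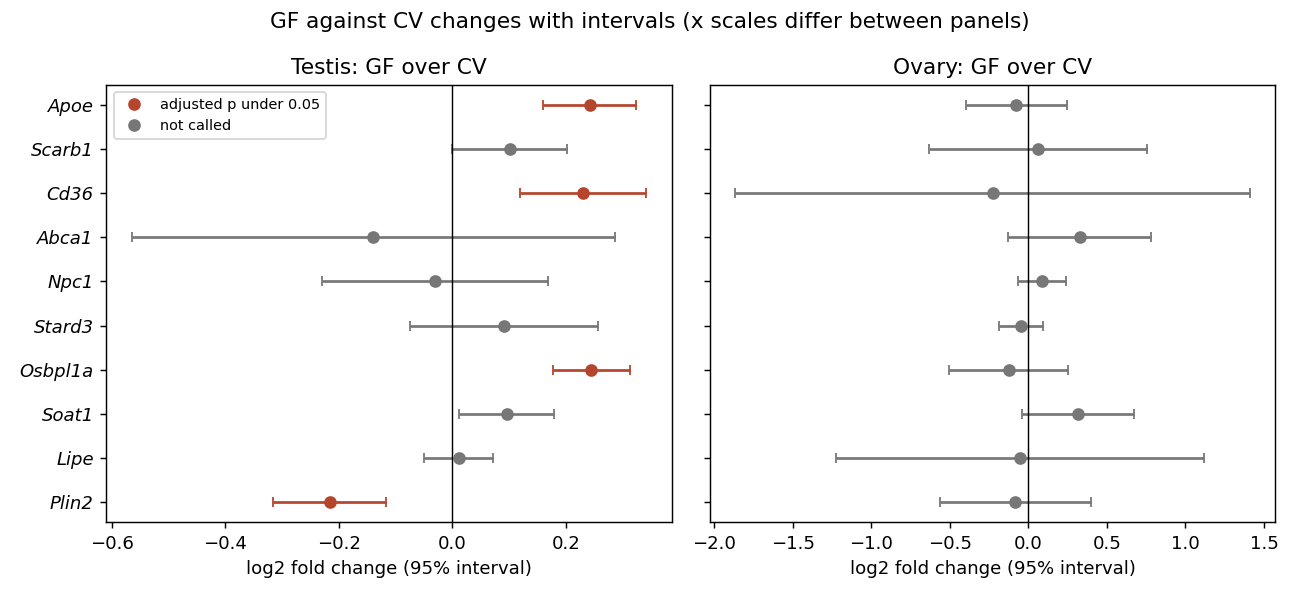
Points are log2 fold changes of GF over CV from the edgeR fit of each tissue and bars are 95% intervals, with red for genes at an adjusted p under 0.05; the x scales of the panels differ. In the testis the called genes Apoe, Cd36 and Osbpl1a lie to the right of 0 and Plin2 to the left. The testis interval of Soat1, which was not called, also lies just to the right of 0 (1.01-fold to 1.13-fold). In the ovary all 10 intervals cross 0 and that of Cd36 runs from -1.86 to 1.41.

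In the ovary, none of the 10 genes was called between GF and CV females by edgeR, none had an unadjusted p under 0.05, and DESeq2 called none either. The background in this tissue was low: 0.177% of the 18095 genes tested were called, and 6.48% had an unadjusted p under 0.05. The GF and CV ranges overlapped for all 10 genes, where 2.81% of all genes had ranges apart. Soat1 came nearest, with 1044, 602, 716, 873 and 610.4 CPM in GF ovaries, against 628, 548, 635 and 653 CPM in CV ovaries. GF ovaries 1, 3 and 4 exceeded all CV ovaries, and GF ovaries 2 and 5 did not. Its log2 fold change was 0.32 with a 95% interval of -0.04 to 0.67 (edgeR adjusted p = 0.792).

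Abca1 was similar in size, with 647, 461, 486, 454 and 805 CPM in GF ovaries, against 598, 394, 397 and 424 CPM in CV ovaries. GF libraries 1 and 5 and CV library 1 stood above the rest, and the log2 fold change was 0.33 with an interval of -0.13 to 0.78 (adjusted p = 0.824). The other eight fold changes lay between -0.23 and 0.09 on the log2 scale. For Npc1 (0.09, interval -0.07 to 0.24) and Stard3 (-0.05, interval -0.19 to 0.10) the intervals were narrow, and for Cd36 (-0.23, interval -1.86 to 1.41) and Lipe (-0.05, interval -1.22 to 1.12) they left room for more than a 2-fold change in either direction. Of the other pathway genes, 73 were tested and 0 were called by edgeR or by DESeq2. Lrpap1, a chaperone of LDL receptor family members, was the only one at an unadjusted p under 0.05 (log2 fold change -0.14, edgeR adjusted p = 0.759). Other genes with low p-values were the peroxisomal sterol carrier gene Scp2 at -0.34, the lipoprotein receptor gene Vldlr at -0.12, the droplet gene Cidea at -0.63 and the sterol transporter gene Gramd1c at -0.18, all log2 fold changes at adjusted p-values of 0.781 to 0.810.

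The differences between single ovaries were larger than those between the groups, and they did not run alike for all genes. Cd36 had 44.1, 80.9, 254, 34.5 and 181 CPM in GF ovaries, against 83.9, 256, 154 and 61.0 CPM in CV ovaries. GF libraries 3 and 5 and CV library 2 were highest, and GF library 4 was lowest. Within groups its SD was 1.12 on the log2 scale, and 99.4% of the 10872 ovary genes at 10 CPM or more varied less (median SD 0.125).

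Lipe followed the same libraries, with 28.1, 31.7, 72.3, 19.6 and 61.2 CPM in GF ovaries, against 34.8, 85.0, 34.3 and 21.7 CPM in CV ovaries (within-group SD 0.79, larger than in 98.9% of genes). Plin2 was highest in GF library 3. It had 57.8, 69.1, 108, 60.3 and 82.5 CPM in GF ovaries, against 55.1, 89.0, 87.2 and 87.5 CPM in CV ovaries. CV library 4 was high in Plin2 and low in Cd36 and Lipe. The libraries high in Cd36 and Lipe are those high in adipocyte markers. Counting only the 4 markers that belong to no list of lipid genes used here (Adipoq, Lep, Retn and Pck1), the sums were 9.88, 76.8, 329.8, 1.57 and 226 CPM in GF ovaries and 91.3, 385, 151 and 18.9 CPM in CV ovaries. Lep had no count in GF library 4. The order of the 9 ovaries by this sum was the same as their order by Cd36. Without the library richest in these markers in each group, the ovary log2 fold change was -0.23 for Cd36, 0.21 for Lipe and -0.19 for Plin2, and again 0 of 10 genes were called. The part of adipocytes in these levels was not tested.

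**Figure D3:**
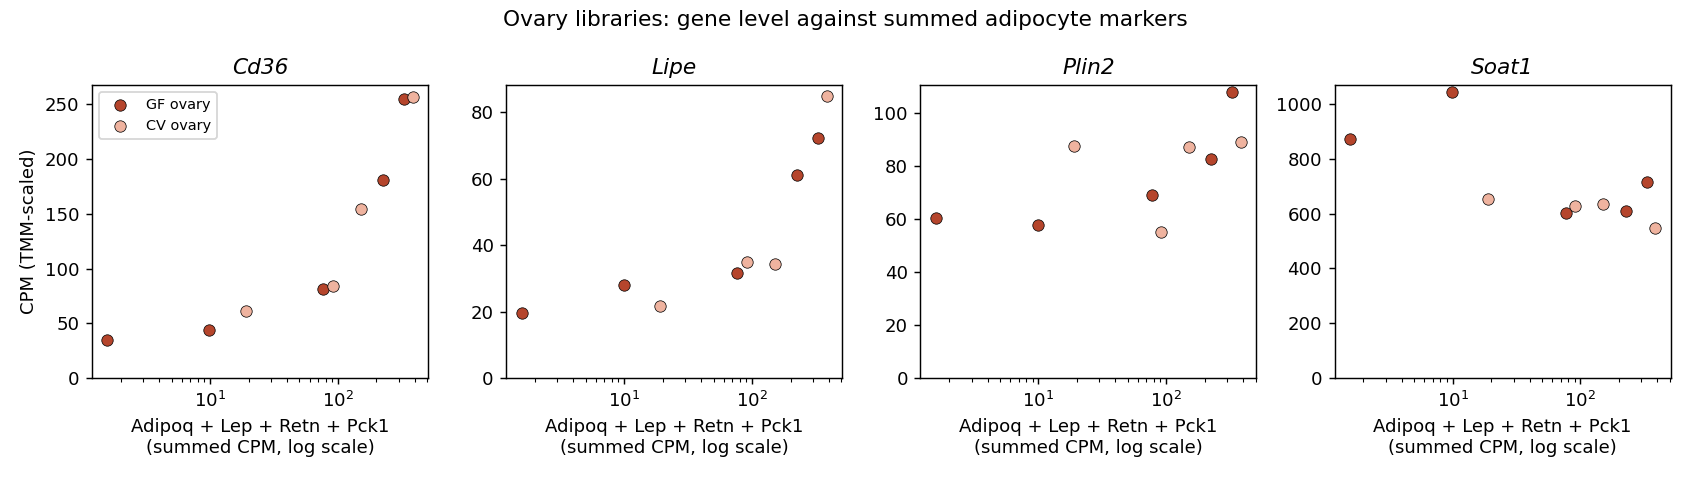
Each point is 1 ovary library, with the summed CPM of the adipocyte markers Adipoq, Lep, Retn and Pck1 on a log x axis and the gene's CPM on a linear y axis from 0. Cd36 rises over the whole range of the marker sum, between 34.5 and 256 CPM, and Lipe is high in the 3 libraries with the highest sums, whereas Soat1 is highest where the sum is low.

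Scarb1 and Soat1 showed another pattern. Scarb1 had 447, 174, 258, 307 and 167 CPM in GF ovaries, against 315, 237, 194 and 289 CPM in CV ovaries, and GF library 1 was highest for both genes. The same library had the highest sum of luteal markers (Akr1c18, Ptgfr, Prlr, Lhcgr, Cyp11a1 and Hsd3b1), 9403 CPM beside 5309 to 6768 CPM in the other GF ovaries and 5465 to 7072 CPM in CV ovaries. Prlr, Lhcgr, Cyp11a1 and Hsd3b1 were each highest in that library, and the sum was mostly Cyp11a1 and Hsd3b1, at 3371 and 4669 CPM there. Akr1c18 and Ptgfr were not highest there, at 5.36 and 177.5 CPM beside 383 and 249 CPM in GF ovary 2, and 38.4 and 274 CPM in CV ovary 1. Luteal cells are rich in Scarb1 in rodents. The part of these cells in the values was not tested.

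Abca1 and Osbpl1a were mirrored. GF libraries 1 and 5 and CV library 1, the 3 highest for Abca1, were the 3 lowest for Osbpl1a, at 48.1, 50.4 and 47.8 CPM, where the other six ovaries had 57.0 to 73.2 CPM. Pearson's r between these genes over the 9 ovaries was -0.85 on log2 CPM, the most negative of the pairs of the 10 genes. Those 3 libraries also had the lowest sums of the theca markers Cyp17a1, Insl3, Ptch1 and Aldh1a1, at 1443, 1142 and 1414 CPM beside 1642 to 3204 CPM in the rest. Most of the sum was Aldh1a1, at 1230, 1049 and 1119 CPM in those libraries and 1299 to 2178 CPM in the rest. Cyp17a1 was lowest there too, at 134, 12.8 and 218.7 CPM, with CV ovary 4 close at 219.8 CPM. Ptch1 (73.4, 76.8 and 74.0 CPM, beside 53.8 to 82.6 CPM) and Insl3 (4.96, 3.38 and 2.71 CPM, beside 2.23 to 10.5 CPM) were not lowest there. The granulosa markers Fshr, Cyp19a1, Amh, Inhba, Inhbb, Foxl2 and Nr5a2 summed to 714, 521 and 719 CPM in those libraries. GF ovary 2 was also low at 572 CPM, and the rest had 768 to 1031 CPM. Of these markers only Inhba had its lowest values in those 3 libraries. The part of theca or granulosa cells in these levels was not tested. Npc1 and Stard3 varied little, with 67.0 to 79.5 and 24.3 to 28.2 CPM in GF ovaries and 59.9 to 72.5 and 26.3 to 28.0 CPM in CV ovaries. Apoe lay in between, with 396, 441, 541, 314 and 406 CPM in GF ovaries, against 472, 428, 495 and 369 CPM in CV ovaries.

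Genes with a pattern like that of each member over the 9 ovaries, of 10012 candidates at 10 CPM or more, differed from gene to gene. Cd36 was most like Pck1 (r = 0.99) and Pde3b (0.98), both strongly expressed in adipocytes, and Lipe was like Gstz1 (0.97). Osbpl1a was most like Phyhip and Cpox (both 0.98) and Abca1 like Man2a1 (0.95) and Tgfb3 (0.94). Scarb1 was most like Trim26 (0.97) and Kansl2 (0.95), and Soat1 like the histone gene Hist2h2ac and Pebp1 (both 0.97); reads of near-identical histone genes may be shared. Plin2 was most like Mgst1 (0.95) and Nxt2 (0.93), Stard3 like Mertk (0.96) and Sc5d (0.94), Npc1 like Aldh1a3 and Tbc1d17 (both 0.92), and Apoe like Clec7a (0.92), a receptor of macrophages and other myeloid cells, and Atraid (0.90). The 9 ovaries are the same for every pair of genes, and these values are descriptions.

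Whether the GF difference was unlike between the tissues was tested directly over all 16 libraries. The log2 difference, testis change less ovary change, was -0.48 for Abca1, 0.44 for Cd36, 0.35 for Osbpl1a and 0.30 for Apoe, and between -0.24 and 0.12 for the other six. None was called by edgeR and none had an unadjusted p under 0.05 (every adjusted p was 0.788 or more), while 0.132% of the 21977 genes tested were called and 6.93% had an unadjusted p under 0.05. DESeq2 likewise called none of the 10. So the testis calls were not shown to differ from the ovary values, whose spread was larger.

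Between the organs, Lipe and Osbpl1a were higher in CV testes than in CV ovaries, and Apoe, Scarb1, Cd36, Abca1, Npc1, Stard3 and Soat1 were lower. In edgeR, 9 of the 10 genes were called, 2 higher and 7 lower in the testis, where 91.2% of the 21231 genes tested were called, 47.4% higher and 43.8% lower. Past a 2-fold difference, 2 of the 10 were higher and 6 lower, where 70.5% of all genes were called past it, 37.4% higher and 33.1% lower. The median log2 fold change of the 10 genes was -1.48, beside 0.11 over all genes tested. Counts scaled to library totals, without TMM, moved the median of all genes to -0.69 and the split of called genes to 7777 higher and 11932 lower, in place of 10073 and 9293, and no gene of the 10 changed direction.

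Lipe averaged 529 ± 11.3 CPM in CV testes and 44.0 ± 28.0 CPM in CV ovaries (SD, n = 4 each), and the lowest testis lay above the highest ovary by a wide margin, 512 against 85.0 CPM. This was a 12.2-fold difference (log2 3.61, SE 0.432, adjusted p = 1.60e-04). Osbpl1a was the other gene higher in the testis, with 155 ± 5.72 CPM in CV testes and 65.6 ± 11.9 CPM in CV ovaries, a 2.39-fold difference (log2 1.26, adjusted p = 2.29e-06). It shrank to a log2 fold change of 0.45 when counts were scaled to library totals.

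Of the ligand and the receptors, Apoe averaged 87.8 ± 3.09 CPM in CV testes and 441 ± 55.4 CPM in CV ovaries, 4.95-fold lower in the testis. Scarb1 averaged 109 ± 6.39 CPM in CV testes and 259 ± 54.0 CPM in CV ovaries, and Cd36 40.7 ± 2.85 CPM in CV testes and 139 ± 87.8 CPM in CV ovaries. Cd36 was called between the CV organs (log2 -1.75, edgeR adjusted p = 0.0103) but not between the GF organs (-1.31, adjusted p = 0.122), where 3 of the 5 ovaries lay above the testis range and 2 below it.

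Soat1, Npc1, Abca1 and Stard3 were lower in the testis as well, while Plin2 did not pass the test. Soat1 averaged 94.5 ± 5.53 CPM in CV testes and 616 ± 46.4 CPM in CV ovaries, 6.43-fold lower (log2 -2.69, edgeR adjusted p = 2.34e-13). Npc1 averaged 9.67 ± 0.613 CPM in CV testes and 66.8 ± 5.22 CPM in CV ovaries, 6.81-fold lower, with Rmc1 overlapping it on the opposite strand by 967 bases. Abca1 was 4.30-fold lower, and Stard3 1.67-fold lower, at 16.0 ± 1.03 CPM in CV testes and 27.2 ± 0.824 CPM in CV ovaries. Plin2 had 66.9 ± 4.17 CPM in CV testes and 79.7 ± 16.5 CPM in CV ovaries (log2 -0.23, adjusted p = 0.156). Its call depended on the setting: it was called without CV ovary 1 (-0.37, edgeR adjusted p = 1.88e-05) and with counts scaled to library totals (-1.04, adjusted p = 1.18e-04).

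In libraries that this comparison did not use, the GF testes and GF ovaries, the same 9 genes had the same signs and 8 of them were called. Lipe was higher in GF testes by 3.65 on the log2 scale and Osbpl1a by 1.61, and the values were -2.92 for Soat1, -2.90 for Npc1, -2.58 for Abca1, -2.01 for Apoe, -1.19 for Scarb1 and -0.62 for Stard3.

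Of the other 76 pathway genes, 73 were tested between the CV organs and 24 were higher and 42 lower in the testis, or 20 and 50 with counts scaled to library totals; 91.2% of all genes were called. Receptor and uptake genes had 5 higher and 11 lower of 17, efflux genes 1 and 4 of 6, lipoprotein supply genes 2 and 5 of 9, sterol carriers 7 and 13 of 23, and lipid droplet genes 9 and 9 of 18. Stard6, a START domain gene of male germ cells, had the highest log2 fold change among sterol carriers, 8.69, and Osbpl6 the lowest, -5.11. Pdzk1 stood at 7.45 and the lipoprotein receptor gene Vldlr at -6.09 among receptors. Lpl, lipoprotein lipase, was at -5.08 and Mttp, which loads lipid onto nascent lipoproteins, at 2.27 among supply genes. The liver X receptor gene Nr1h3 was at 1.68 and the transporter gene Abcg4 at -3.77 in efflux, and Fitm1 at 5.33 and the perilipin gene Plin4 at -5.79 among droplet genes. Ovarian levels of Lpl and Plin4 also differed widely between libraries, with SDs of 89.3 and 118 CPM around CV means of 144 and 173 CPM.

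**Figure D4:**
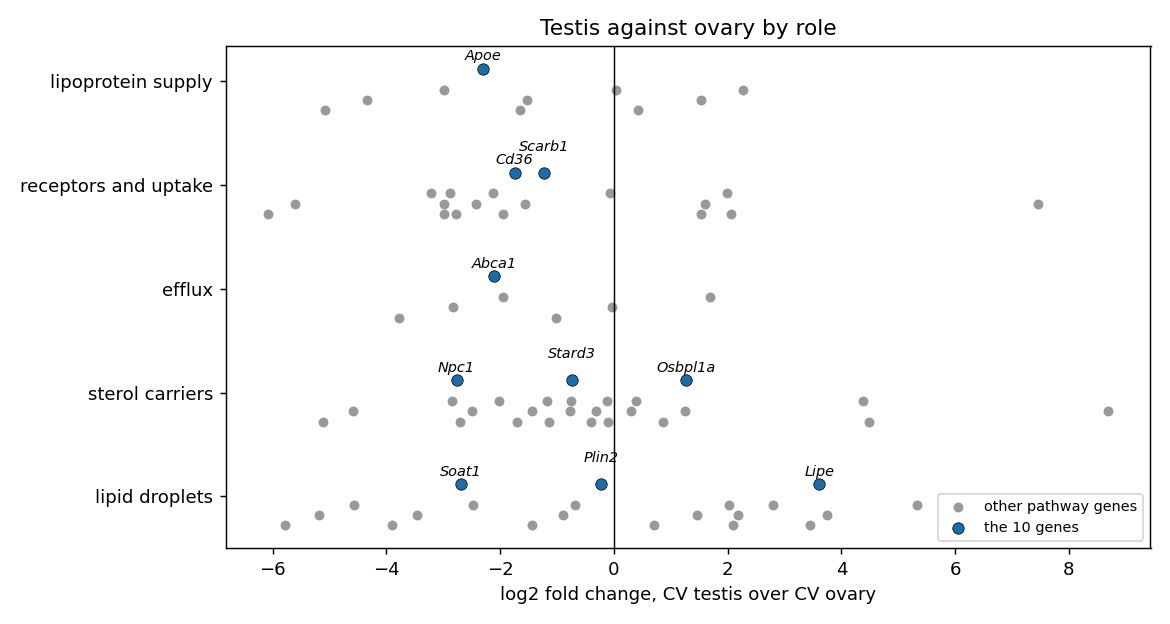
Points are log2 fold changes of CV testis over CV ovary for the 10 genes (blue, named) and the other pathway genes that were tested (grey), placed in 5 rows by role. Lipe at 3.61 and Osbpl1a at 1.26 lie to the right of 0, Plin2 at -0.23 lies close to it, and the other named genes lie to the left.

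Set on a common scale per kilobase of exon (RPKM), the genes ranked differently in the organs. In testes Lipe came first, at 89.6 RPKM in GF and 89.9 RPKM in CV males, followed by Apoe at 48.1 and 41.1 RPKM and Osbpl1a at 23.3 and 19.9 RPKM in the same groups. Npc1 was last at 0.829 RPKM in GF and 0.855 RPKM in CV testes. In ovaries Apoe came first, at 196 RPKM in GF and 206 RPKM in CV females, then Soat1 at 78.6 and 62.9 RPKM and Abca1 at 55.1 and 43.7 RPKM, while Lipe was last but one at 7.23 and 7.47 RPKM and Npc1 last at 6.29 and 5.90 RPKM. Counted per union of exons, the order of the 10 was the same in GF and CV ovaries. Most neighbours in it overlapped: in both ovary groups Apoe stood clear of Soat1 and Plin2 of Osbpl1a, and the other 7 neighbouring pairs had overlapping ranges. In testes the ranges were apart in 8 of 9 neighbouring pairs in GF and 5 of 9 in CV males. Exon length matters here: with the longest transcript in place of all exons, Scarb1 moved up to 87.4 RPKM in GF ovaries, next after Apoe and Soat1, and to 83.6 RPKM in CV ovaries, next after Apoe. The 2 ovary groups then differed in order, with Lipe last in GF ovaries at 11.5 RPKM and Npc1 last in CV ovaries at 11.6 RPKM.

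**Figure D5:**
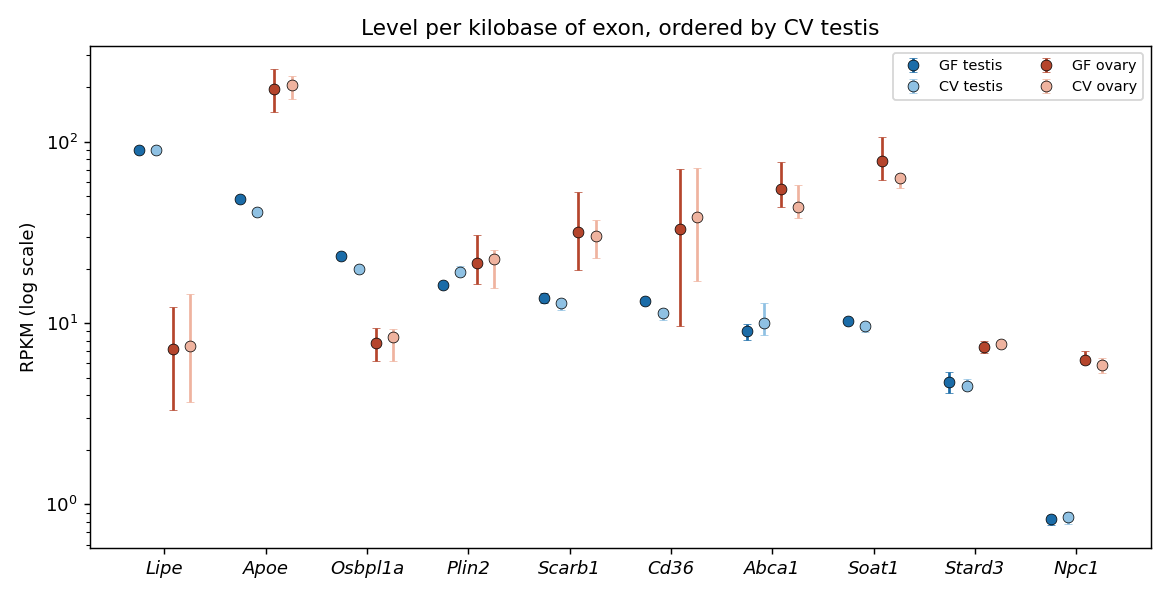
Points are group means in RPKM on a log axis and bars run over the lowest to the highest library, with genes ordered by their level in CV testis. Lipe is first in testis and among the lowest in ovary, and Soat1, Abca1 and Npc1 lie lower in testis than in ovary.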

How the data were processed

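Total RNA of whole ovaries and testes was sequenced in 16 libraries, grouped by the labels' tissue and microbiome status. Per the labels' protocols, libraries came from a stranded total RNA kit after ribosomal depletion. The authors deposited raw whole-number counts per gene; STAR 2.4.0i and mm10 are named in the submitters' processing notes, and no source used here gives the counting tool or annotation. The 10 genes, the 76 other pathway genes and the marker lists were chosen with earlier results of these data known. Counts were fitted over the whole table with edgeR 4.0.16 (R 4.3.3; TMM, expression filter, robust quasi-likelihood F test, two-sided), Benjamini-Hochberg adjusted over all genes tested, one fit per comparison; scripts were tested on simulated counts. CPM used TMM factors over all libraries, and RPKM divided these by the union of exons in GENCODE M21 (GRCm38). Testis libraries held more counts, but their TMM factors were 0.723 to 0.751, beside 1.24 to 1.28 in ovaries. A gene at a given CPM therefore had a similar count, and similar counting error, in both organs.

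Named pathway genes were, for each GF comparison, the 6 with the smallest p and, between organs, the called gene at either end of each role among genes at 1 CPM or more. Likeness was Pearson's r of log2 CPM (prior count 2). Some genes that these rules select are not reported here. Same-numbered ovaries deviated together from their group means (r = 0.37, 0.25, 0.20 and 0.36 for numbers 1 to 4). Same-numbered testes did not (r between -0.04 and 0.01). Libraries with different numbers were not compared in this way, so these r values cannot show that the numbers pair the libraries. A fit with the number as a block was kept beside the main one. No libraries of a group agreed within counting noise (lowest chi-square per degree of freedom 2.37 over 25 pairs). Alternatives were DESeq2 1.42.0, RLE or total-count scaling, no filter, the block, all 16 libraries in 1 fit, each library left out, GF organs in place of CV organs and, added after seeing the data, the ovaries without CV 2 and GF 3, the richest in adipocyte markers.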

Additional observations from a re-analysis of the deposited data

Results flagged for a closer look

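Values of the 10 genes were examined in the 30 sets of 4 or 5 libraries that share a gene and a group, and 5 had 1 library far from the others by Dixon's criterion; chance flags about 1 set in 20. CV ovary 1 accounted for 3 of them, with Abca1 at 598 CPM beside 394 to 424 CPM in the other CV ovaries, Osbpl1a at 47.8 CPM beside 71.0 to 72.4 CPM, and Plin2 at 55.1 CPM beside 87.2 to 89.0 CPM. Without that library the log2 fold changes of GF over CV ovaries were 0.49 for Abca1, -0.25 for Osbpl1a and -0.22 for Plin2, and none was called by edgeR. In the testis, CV library 2 stood apart for Osbpl1a at 146 CPM beside 157 to 159 CPM, and CV library 1 for Lipe at 512 CPM beside 533 to 536 CPM. Without CV testis 2 the rise of Osbpl1a in GF testes was still called, at a log2 fold change of 0.22 (edgeR adjusted p = 2.67e-05).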

How the results depend on the processing

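Of the 10 genes, 0 were called between GF and CV ovaries and 0 in the interaction under every alternative run, and the 4 testis calls kept their direction under all and were lost only in the joint fit of 16 libraries (0 of 10 called, against 4). Over all genes, the ovary count of 32 became 95 with DESeq2, 91 with the replicate block (which drops the unpaired GF ovary 5) and 93 in the joint fit. The testis count of 1638 became 122 in the joint fit and 996 to 2084 with 1 library left out, the lowest without GF testis 2. The interaction count of 29 became 127 with DESeq2 and 13 to 37 with 1 library left out, the lowest without GF testis 3. The causes were not tested.

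Some uncalled log2 fold changes turned sign when 1 library was left out. In the ovary they ranged over -0.19 to 0.0109 for Apoe (-0.20 without CV 2 and GF 3), -0.19 to 0.19 for Scarb1, -0.71 to 0.25 for Cd36, -0.33 to 0.49 for Lipe and -0.25 to 0.00203 for Plin2. In the testis they ranged over -0.0705 to 0.0170 for Npc1, -0.00486 to 0.18 for Stard3 and -0.0298 to 0.0326 for Lipe, which was -0.00659 in the joint fit. The interaction ranged over -0.11 to 0.28 for Scarb1, -0.0432 to 0.92 for Cd36, -0.50 to 0.32 for Lipe and -0.24 to 0.0101 for Plin2. It was -0.0665 for Scarb1 with the replicate block and -0.22 for Lipe without CV ovary 2 and GF ovary 3, where Lipe in the ovary was 0.21. The block moved the ovary value of Cd36 to -0.68 and changed no call of the 10 genes in any comparison. Counting depth was lowest for Npc1 in the testis, at 172 to 201 counts a library, and the spread between ovaries was widest for Cd36 and Lipe.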
